A study of Mus musculus with 2 samples.

Results

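Integrins and cadherins, the receptors by which cells hold on to matrix and to each other, were examined in mouse embryonic fibroblasts (MEFs), connective-tissue cells cultured directly from the embryo. The members were taken by gene symbol: the integrin alpha subunits with a number or named Itgav, the numbered integrin beta subunits without Itgb2, and the numbered cadherins without Cdh1 and Cdh15. This gave 41 genes on 43 probe sets, of 19938 genes on 21789 probe sets with 1 gene symbol in all. They comprise 20 integrin genes, 13 for alpha and 7 for beta subunits, and 21 cadherin genes. All 41 protein-coding genes of the reference gene table whose symbols meet the rule were measured.

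The study set MatDup.dist7 MEFs against PatDup.dist7 MEFs, both from embryos at 13.5 days post coitum. In MatDup.dist7 both copies of distal chromosome 7 come from the mother, and in PatDup.dist7 both come from the father. The cells were grown in serum-containing medium, and total RNA from each genotype was hybridised to 1 array. How many embryos stood behind each culture is not stated in the labels. As each genotype had a single array, no test could be made between them and no replicate spread is known, which limits the precision of each value below.

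Values are probe set intensities on a linear scale. Each difference is the MatDup.dist7 value minus the PatDup.dist7 value of log2(intensity + 16), where 1 stands for 2-fold. Differences of dim genes are understated on this scale. A probe set's brightness depends on its probes, so levels were compared between the arrays and not between genes. The intensity of 66.4, the median of all values on both arrays, served as the line between dim and brighter genes. Over all genes the median difference was 0.02 and 51.4% of genes had the higher value in MatDup.dist7. The Y-linked genes Eif2s3y, Uty and Kdm5d had higher values in MatDup.dist7 (log2 differences of 2.51, 2.33 and 1.83), and Xist, the RNA that coats the silenced X chromosome, had the lower value there (-2.74). The arrays thus differed in sex-linked transcripts too, and an effect of sex and one of genotype cannot be told apart here.

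Integrins are pairs of 1 alpha and 1 beta subunit that span the membrane, bind matrix proteins outside the cell and, through talin and kindlin, join the actin cytoskeleton inside it. The alpha subunit largely sets the ligand: collagens, laminins, proteins carrying the arginine-glycine-aspartate (RGD) sequence such as fibronectin, or cell surface proteins such as Vcam1. Cadherins bind calcium and mostly pair with the same cadherin on a neighbouring cell. Classical cadherins of types I and II carry a tail that binds beta-catenin and p120-catenin, while atypical cadherins differ in that tail or lack it. Fibroblasts are known for N-cadherin (Cdh2) and cadherin 11 as well as for fibronectin and collagen-binding integrins.

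Of the 41 adhesion genes, 6 lay at least 2-fold apart between the arrays. Cdh13, Itgb6, Cdh18 and Itga3 were higher in MatDup.dist7, and Itga4 and Cdh6 were lower there. Among all genes, 7.63% were at least 2-fold apart, 4.47% with the higher value in MatDup.dist7 and 3.16% with the higher value in PatDup.dist7. When each array was centred on its median, 3.49% had the higher value in MatDup.dist7 and 4.13% in PatDup.dist7, so the more frequent direction over all genes depended on the scaling. Among the 28 members whose higher value was above the median signal, 3 exceeded 2-fold with the higher value in MatDup.dist7 and 1 with the higher value in PatDup.dist7. These were Cdh13, Cdh18, Itga3 and Cdh6, and each was above that signal on only 1 array, the one with its higher value. The count is therefore no separate support for their differences. Of the 12733 genes above that line 5.16% were at least 2-fold apart, 2.74% with the higher value in MatDup.dist7 and 2.42% with the higher value in PatDup.dist7.

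**Figure D1:**
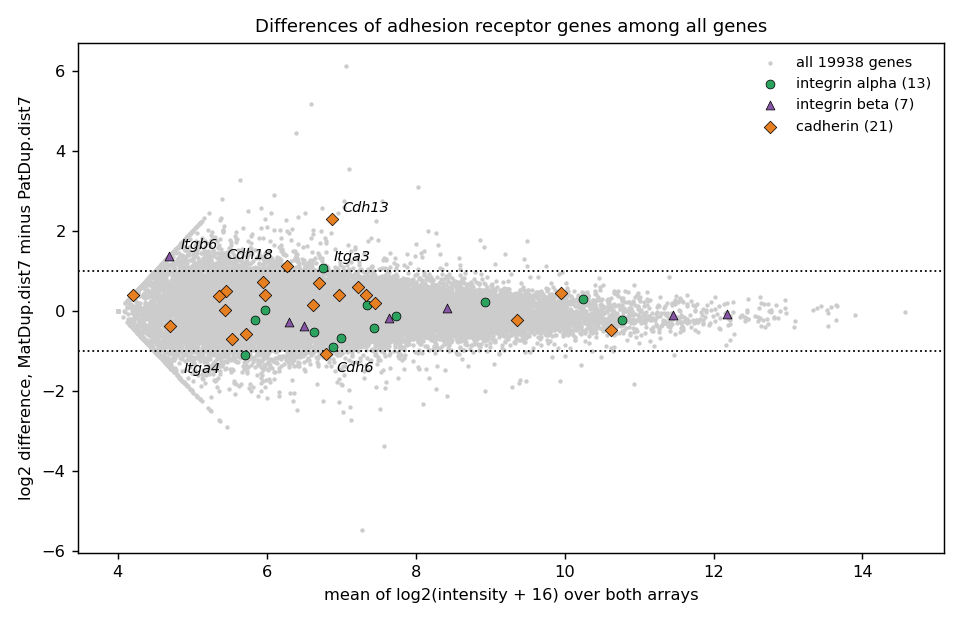
Log2 difference (MatDup.dist7 minus PatDup.dist7, vertical axis) against the mean log2(intensity + 16) of both arrays (horizontal axis) for all 19938 genes in grey, with the 13 integrin alpha, 7 integrin beta and 21 cadherin genes in colour and dotted lines at 2-fold. Cdh13 stands at 2.30, Cdh18, Itga3, Cdh6 and Itga4 lie just past the lines, and Itgb6 lies on the edge set by a value near 0 on 1 array.

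Cdh13 encodes T-cadherin, which is held to the membrane by a lipid anchor without the catenin-binding tail and is a receptor for adiponectin. Its intensity was 244 in MatDup.dist7 cells and 36.7 in PatDup.dist7 cells, a log2 difference of 2.30, or 4.93-fold on this scale. This was the largest difference among the 41 members and ranked 37 among all genes by size. It was at least 2-fold under the 8 other settings, from 1.61 with a pseudocount of 64 to 2.73 with low values raised to the 25th percentile. The signal filter, the brightest probe set and leaving out probe sets under 1 could not change it, as Cdh13 has 1 probe set. The other settings rescale the same pair of values, so none of them is a check against variation between cultures.

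Itga3, the alpha subunit of a laminin receptor prominent in basal epithelium, had 141 in MatDup.dist7 cells and 58.5 in PatDup.dist7 cells (log2 difference 1.08). Cdh18, a type II cadherin known mainly from the nervous system, was measured by a pair of probe sets. One had 110 in MatDup.dist7 cells and 44.6 in PatDup.dist7 cells (1.06), and the other had 88.2 in MatDup.dist7 cells and 29.7 in PatDup.dist7 cells (1.19), so both gave the higher value in MatDup.dist7. Itgb6, the epithelial beta subunit that pairs with Itgav and releases active TGF-beta from its latent complex, had 25.8 in MatDup.dist7 cells and 0.0031 in PatDup.dist7 cells. Its log2 difference of 1.39 was 4.74 with a pseudocount of 1, 0.49 with a pseudocount of 64 and 0.24 with the floor at the 25th percentile. Both of its values lay under the median signal, and a value near 0 on these arrays is not evidence that the transcript was missing.

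Lower values in MatDup.dist7 were found for Itga4, the alpha subunit that binds Vcam1 and an alternatively spliced part of fibronectin and is best known from leukocytes. It had 19.9 in MatDup.dist7 cells and 60.3 in PatDup.dist7 cells (log2 difference -1.09), both under the median signal. Cdh6, K-cadherin of developing kidney and neural crest, had 61.1 in MatDup.dist7 cells and 144 in PatDup.dist7 cells (-1.06). With a pseudocount of 64, each of these genes but Cdh13 lay within 2-fold, and with centred arrays Itga3 lay marginally under the line.

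**Figure D2:**
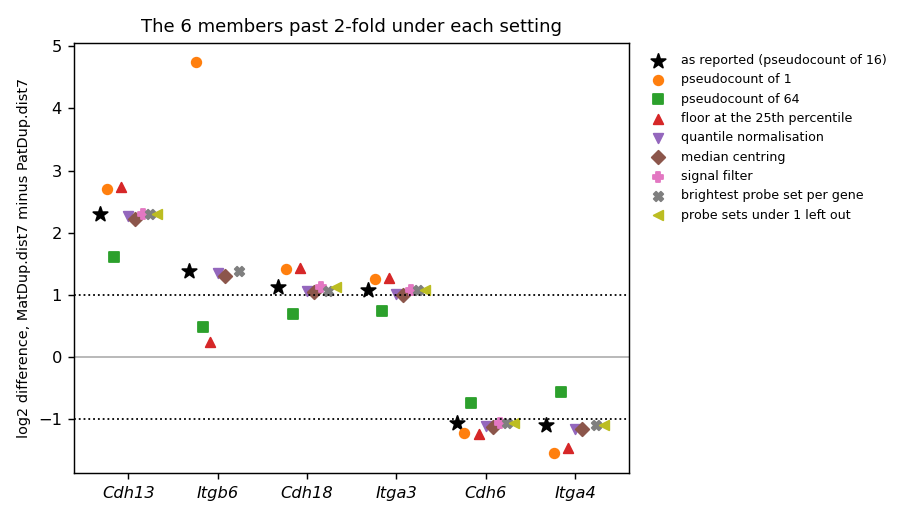
Log2 difference (MatDup.dist7 minus PatDup.dist7, vertical axis) of the 6 genes at least 2-fold apart, in the setting reported (star) and under each alternative in which the gene has a value (other symbols), with dotted lines at 2-fold. Cdh13 is above the line throughout, from 1.61 to 2.73, while Itgb6 runs from 0.24 to 4.74.

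Promoter windows of 300 bases, 250 before and 50 after the start of the gene, were available from RefSeq (GRCm38.p6) for 28 of the 41 members, 32 windows in all. Windows of 4 of the genes at least 2-fold apart are given here to show how much these promoters differ in CpG, the dinucleotide at which mammalian DNA is methylated. Each is written 5′ to 3′ on the strand of the gene with CG in capitals. Of the windows of Itga3, the more upstream one is given.
Itga3, chr11:95076665-95076964, minus strand: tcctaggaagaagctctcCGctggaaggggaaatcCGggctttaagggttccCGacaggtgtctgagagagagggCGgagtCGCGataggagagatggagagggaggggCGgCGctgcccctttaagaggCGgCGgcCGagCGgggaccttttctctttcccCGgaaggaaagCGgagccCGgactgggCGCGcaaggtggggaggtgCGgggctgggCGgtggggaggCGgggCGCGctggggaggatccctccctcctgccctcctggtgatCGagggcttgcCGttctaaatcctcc
Cdh18, chr15:23036213-23036512, plus strand: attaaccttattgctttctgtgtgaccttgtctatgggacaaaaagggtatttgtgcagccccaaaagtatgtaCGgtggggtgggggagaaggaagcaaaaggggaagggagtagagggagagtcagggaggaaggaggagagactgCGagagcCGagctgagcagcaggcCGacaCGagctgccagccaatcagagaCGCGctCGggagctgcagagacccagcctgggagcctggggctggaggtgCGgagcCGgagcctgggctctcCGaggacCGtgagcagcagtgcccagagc
Itga4, chr2:79255176-79255475, plus strand: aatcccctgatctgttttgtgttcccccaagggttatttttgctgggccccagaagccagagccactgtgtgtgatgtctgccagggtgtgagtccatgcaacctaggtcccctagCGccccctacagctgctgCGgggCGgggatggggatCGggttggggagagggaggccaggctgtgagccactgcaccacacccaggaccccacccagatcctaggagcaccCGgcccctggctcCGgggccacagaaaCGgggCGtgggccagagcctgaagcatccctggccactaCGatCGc
Cdh6, chr15:13173626-13173925, minus strand: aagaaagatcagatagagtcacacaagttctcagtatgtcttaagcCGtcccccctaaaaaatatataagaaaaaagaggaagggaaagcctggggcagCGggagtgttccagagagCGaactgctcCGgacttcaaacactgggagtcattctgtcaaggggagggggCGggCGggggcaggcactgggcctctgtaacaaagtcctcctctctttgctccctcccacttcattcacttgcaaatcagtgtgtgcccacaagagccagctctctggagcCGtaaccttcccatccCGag

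The Itga3 window shown held 24 CG dinucleotides, that of Cdh18 held 12, that of Itga4 held 10 and that of Cdh6 held 8. The other Itga3 window held 5, so the count of this gene depends on the window. The Itgb6 windows, not printed, held 3 and 12, and no window was available for Cdh13. The median was 12 over the member windows (range 2 to 38) and 7 over all 32851 windows of the table. The highest count, 38, was in Cdh22 and the lowest, 2, in Cdh10. GGGCGG, the core of a GC box, was searched on both strands and found in 12 of 32 member windows (37.5%), among them those of Itga3, Itga4 and Cdh6, and in 35.7% of all windows. CACCTG, an E-box bound by Snail and Zeb repressors, was found on either strand in 9 member windows (28.1%), including the Itga3 window shown, and in 20.2% of all windows. The 3 cadherin windows among the 9 all belong to Cdh7, so this share counts that gene more than once. TATAAA was in 0 of 32 member windows on either strand and in 13.6% of all windows. GGGCGG holds a CG counted above, matches of different motifs can share bases, and a match is a description of the letters, not of binding. DNA methylation was not measured in the data used here.

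The median difference of the integrin alpha subunits was slightly negative. Of the 13 genes, 8 had a negative and 5 a positive difference, while 51.4% of all genes had a positive one. Their median was -0.21, beside 0.02 over all genes, whose median absolute difference was 0.38. Past 2-fold stood Itga3, with the higher value in MatDup.dist7, and Itga4, with the higher value in PatDup.dist7. The median stayed negative under all 8 alternatives, between -0.29 and -0.11. With 1 array each, it is not known whether such a shift exceeds the spread between cultures.

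Among the 4 collagen receptors, the largest difference was that of Itga1, whose product favours the basement membrane collagen made from Col4a1 and Col4a2. Itga1 had 71.3 in MatDup.dist7 cells and 145 in PatDup.dist7 cells (log2 difference -0.88), and it was past 2-fold under the floor at the 25th percentile (-1.02) and under a pseudocount of 1 (-1.01). Itga11, the fibroblast receptor for fibrillar collagens, had 517 in MatDup.dist7 cells and 435 in PatDup.dist7 cells (0.24). Itga10, a receptor of cartilage cells, had 37.4 in MatDup.dist7 cells and 45.6 in PatDup.dist7 cells (-0.21). Itga2, a collagen receptor of platelets and epithelia, had 47.9 in MatDup.dist7 cells and 46.4 in PatDup.dist7 cells, a difference of 0.03 whose sign turned with centring (-0.04) and with quantile normalisation (-0.03). Itga10 and Itga2 were dim on both arrays. The receptors of this class thus did not share a direction.

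Of 13 collagen genes listed as ligands, 10 had lower values in MatDup.dist7, 1 passed 2-fold towards MatDup.dist7 and 0 towards PatDup.dist7, with a median of -0.50. The share past 2-fold, 7.69%, was near the 7.63% of all genes. Of all genes, 51.4% had the higher value in MatDup.dist7. Col4a1 had 1727 in MatDup.dist7 cells and 2919 in PatDup.dist7 cells (log2 difference -0.75), and Col4a2 had 900 in MatDup.dist7 cells and 1303 in PatDup.dist7 cells (-0.53), the same direction as Itga1. The fibrillar Col1a1 and Col3a1 differed by -0.38 and -0.50, opposite in sign to Itga11. Col2a1, the collagen of cartilage, was the one past 2-fold, with 599 in MatDup.dist7 cells and 141 in PatDup.dist7 cells (1.97), while Itga10 lay at -0.21.

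The 3 laminin receptors split. Itga6, which pairs with Itgb1 or Itgb4, had 134 in MatDup.dist7 cells and 185 in PatDup.dist7 cells (log2 difference -0.42). Itga7, the laminin receptor of skeletal muscle, had 85.2 in MatDup.dist7 cells and 144 in PatDup.dist7 cells (-0.66). Both were thus lower in MatDup.dist7, against the 1.08 of Itga3. Laminin chains went both ways as well: of 10 measured, Lama2, the chain of muscle basement membrane, passed 2-fold towards MatDup.dist7 (83.0 in MatDup.dist7 cells against 25.3 in PatDup.dist7 cells, 1.26). Lama4, a chain of vessels and mesenchyme, passed it in the other direction (145 in MatDup.dist7 cells against 418 in PatDup.dist7 cells, -1.43). Together these make 20% of the 10 chains, beside 7.63% of all genes. The median of the laminin chains was -0.20, with Lamb1 at -0.57, Lamc1 at -0.49 and Lama5, a ligand of Itga3, at 0.25.

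The RGD receptors differed little. Itga5, the main fibronectin receptor of fibroblasts, had 1604 in MatDup.dist7 cells and 1860 in PatDup.dist7 cells (log2 difference -0.21), and the gene of fibronectin, Fn1, had 11787 in MatDup.dist7 cells and 13781 in PatDup.dist7 cells (-0.23). Itgav, which forms receptors for vitronectin, fibronectin and latent TGF-beta, had 1340 in MatDup.dist7 cells and 1083 in PatDup.dist7 cells (0.30). Itga8, known from kidney development, had 189 in MatDup.dist7 cells and 206 in PatDup.dist7 cells (-0.11), and Npnt, its ligand nephronectin, had 128 in MatDup.dist7 cells and 132 in PatDup.dist7 cells (-0.04). Itga2b, the platelet fibrinogen receptor subunit, had 67.3 in MatDup.dist7 cells and 104 in PatDup.dist7 cells (-0.52). None of these 4 receptor genes was 2-fold apart.

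Itga9, which binds tenascin C, emilin 1 and Svep1, had 156 in MatDup.dist7 cells and 138 in PatDup.dist7 cells (log2 difference 0.16), unlike Itga4 at -1.09. Among 12 measured ligands of the RGD, Itga4 and Itga9 receptors, none was at least 2-fold apart, and the median was 0.08, or -0.23 over the 9 above the median signal. The difference furthest from 0 was that of Vcam1, the ligand of Itga4, with 525 in MatDup.dist7 cells and 910 in PatDup.dist7 cells (-0.78), the direction of Itga4 itself. Tnc, encoding tenascin C, had 3735 in MatDup.dist7 cells and 6099 in PatDup.dist7 cells (-0.71), Svep1 differed by -0.50 and Emilin1 by 0.70.

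Of the beta subunits, Itgb6 was past 2-fold and the other 6 lay between -0.36 and 0.09. Of 7 genes, 5 had a negative difference, while 51.4% of all genes had a positive one. The median was -0.08, and the median of the absolute differences was 0.16, beside 0.38 over all genes. Itgb1, the shared partner of most alpha subunits, had 4545 in MatDup.dist7 cells and 4732 in PatDup.dist7 cells (log2 difference -0.06, or 0.01 after quantile normalisation). Itgb5, a vitronectin receptor subunit that pairs with Itgav, had 2714 in MatDup.dist7 cells and 2877 in PatDup.dist7 cells (-0.08). Itgb3, the partner of Itgav and Itga2b, had 339 in MatDup.dist7 cells and 317 in PatDup.dist7 cells (0.09). With the arrays centred, the differences were -0.14 for Itgb1, -0.16 for Itgb5 and 0.02 for Itgb3, so these 3 stayed well within 2-fold.

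Subunits with few partners were set beside them. Itgb4, which pairs with Itga6 in hemidesmosomes, had 63.8 in MatDup.dist7 cells and 86.5 in PatDup.dist7 cells (log2 difference -0.36, beside -0.42 for Itga6). Itgb7, a leukocyte subunit that pairs with Itga4, had 173 in MatDup.dist7 cells and 195 in PatDup.dist7 cells (-0.16, beside -1.09 for Itga4). Itgb8, another activator of latent TGF-beta with Itgav, had 55.6 in MatDup.dist7 cells and 70.8 in PatDup.dist7 cells (-0.28). Itgb6 and Itgb8, both partners of Itgav, therefore had opposite signs, while Tgfb1, whose latent product they bind, had 1004 in MatDup.dist7 cells and 1476 in PatDup.dist7 cells (-0.55).

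**Figure D3:**
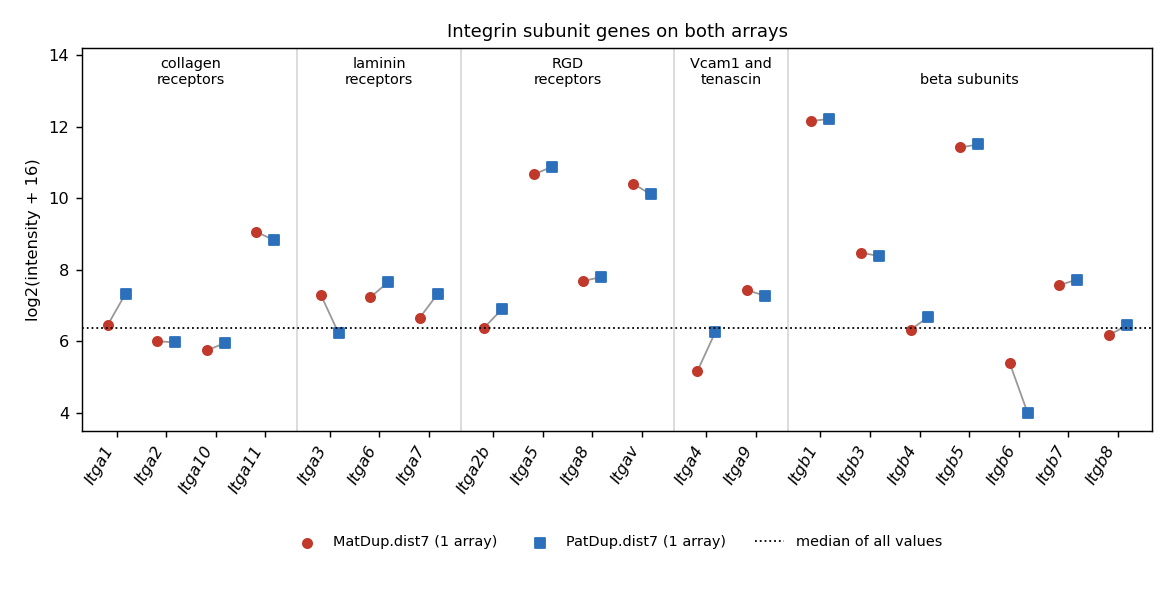
Log2(intensity + 16) of the 20 integrin subunit genes by ligand class (columns), with MatDup.dist7 as red circles left of PatDup.dist7 as blue squares, 1 array each, and a dotted line at the median of all values. Itga3 and Itgb6 step down to the right and Itga4 and Itga1 step up, while Itgb1, Itgb5 and Itgb3 are nearly level.

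Inside the cell, 22 measured genes of adaptors and focal adhesion proteins had a median of -0.12, with 2 past 2-fold towards MatDup.dist7 and 2 towards PatDup.dist7. That is 18.2% of the list, beside 7.63% of all genes and 5.16% of those above the median signal. Lims2, which encodes a partner of integrin-linked kinase, had 218 in MatDup.dist7 cells and 82.6 in PatDup.dist7 cells (log2 difference 1.24). Fermt1, the epithelial kindlin, had 87.3 in MatDup.dist7 cells and 29.2 in PatDup.dist7 cells (1.19), whereas the widely expressed kindlin gene Fermt2 differed by 0.22. Parvg, the parvin of blood cells, had 106 in MatDup.dist7 cells and 371 in PatDup.dist7 cells (-1.67), and Tln2, a talin gene, had 174 in MatDup.dist7 cells and 373 in PatDup.dist7 cells (-1.04). Core components were closer: Tln1 lay at -0.42, Vcl, encoding vinculin, at 0.28, Ilk at 0.14, Parva at -0.11 and Pxn, encoding paxillin, at -0.29.

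**Figure D4:**
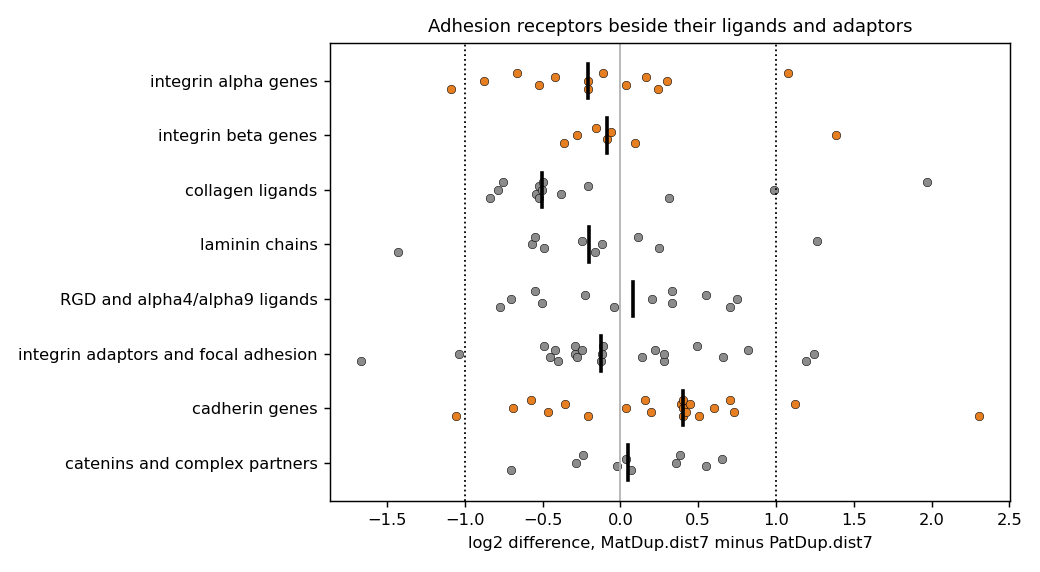
Log2 differences (MatDup.dist7 minus PatDup.dist7, horizontal axis) of each measured gene (points) of the adhesion receptor families (orange) and of their ligand, adaptor and catenin lists (grey), with black bars at the medians and dotted lines at 2-fold. The median is -0.21 for integrin alpha genes, -0.08 for integrin beta genes, -0.50 for collagens and 0.40 for cadherins.

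Cadherins more often had the higher value in MatDup.dist7. Of the 21 genes, 15 had a positive and 6 a negative difference, while 51.4% of all genes had a positive one. Past 2-fold, 2 had the higher value in MatDup.dist7 (Cdh13 and Cdh18) and 1 in PatDup.dist7 (Cdh6), beside 4.47% and 3.16% of all genes. The cadherin median was 0.40, beside 0.02 over all genes, whose median absolute difference was 0.38. Under the alternatives the cadherin median lay between 0.18 and 0.46. Over the 12 cadherin genes whose higher value was above the median signal it was 0.41. Of these, Cdh13, Cdh18, Cdh6 and Cdh26 were above that signal on only 1 array. Whether such a shift exceeds the spread between cultures is not known with 1 array each. Of the type II genes, 8 of 13 were dim on both arrays.

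Each of the 3 type I cadherins was above the median signal. Cdh2, N-cadherin of mesenchymal and neural cells, had 595 in MatDup.dist7 cells and 689 in PatDup.dist7 cells (log2 difference -0.21). Cdh4, R-cadherin of retina and developing muscle and brain, had 1138 in MatDup.dist7 cells and 829 in PatDup.dist7 cells (0.45). Cdh3, P-cadherin of epithelia and placenta, had 169 in MatDup.dist7 cells and 106 in PatDup.dist7 cells (0.60). N-cadherin was thus the one of the 3 with the lower value in MatDup.dist7, and none was 2-fold apart.

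Among type II cadherins, Cdh11, the cadherin of mesenchyme and osteoblasts, had 1328 in MatDup.dist7 cells and 1835 in PatDup.dist7 cells (log2 difference -0.46). Cdh11 and Cdh6 were the 2 type II genes above the median signal with lower values in MatDup.dist7. Those with higher values there were Cdh18 (1.12 over its probe sets), Cdh10 and Cdh24. Cdh10, a cadherin of the nervous system, had 128 in MatDup.dist7 cells and 93.2 in PatDup.dist7 cells (0.40). The probe sets of Cdh24 did not match in size: one had 243 in MatDup.dist7 cells and 227 in PatDup.dist7 cells (0.09), and the other had 118 in MatDup.dist7 cells and 63.7 in PatDup.dist7 cells (0.74). Their mean of 0.42 therefore rests mainly on 1 of them.

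The dim type II genes comprised 6 with higher and 2 with lower values in MatDup.dist7. Cdh22 had 63.5 in MatDup.dist7 cells and 31.8 in PatDup.dist7 cells (log2 difference 0.73), and Cdh5, VE-cadherin of endothelium, had 36.3 in MatDup.dist7 cells and 20.8 in PatDup.dist7 cells (0.51). Cdh9, of the nervous system, had 56.6 in MatDup.dist7 cells and 39.0 in PatDup.dist7 cells (0.40), and Cdh7, another neural cadherin, had 30.9 in MatDup.dist7 cells and 19.7 in PatDup.dist7 cells (0.39). Neither Cdh5 nor these neural genes was above the median signal on either array. Cdh20 had 28.1 in MatDup.dist7 cells and 27.0 in PatDup.dist7 cells (0.04), with the sign turned by centring (-0.04) and by quantile normalisation (-0.03). Cdh19, a cadherin of Schwann cell precursors, had 5.10 in MatDup.dist7 cells and 0.0012 in PatDup.dist7 cells (0.40, but 2.61 with a pseudocount of 1, 0.11 with a pseudocount of 64 and 0 with the floor). The 2 lower ones were Cdh8, of the nervous system, with 27.1 in MatDup.dist7 cells and 48.2 in PatDup.dist7 cells (-0.57), and Cdh12, with 7.04 in MatDup.dist7 cells and 13.5 in PatDup.dist7 cells (-0.36).

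Atypical cadherins other than Cdh13 lay within 2-fold. Cdh26 had 117 in MatDup.dist7 cells and 65.6 in PatDup.dist7 cells (log2 difference 0.70). Cdh16, kidney-specific cadherin, had 171 in MatDup.dist7 cells and 147 in PatDup.dist7 cells (0.20), and Cdh23, part of the tip links of inner ear hair cells, had 87.9 in MatDup.dist7 cells and 77.3 in PatDup.dist7 cells (0.16). Cdh17, the liver-intestine cadherin, was dim, with 20.4 in MatDup.dist7 cells and 42.8 in PatDup.dist7 cells (-0.69, or -1.03 with a pseudocount of 1). Cdh17 was the one of these 5 with a negative difference. Of 10 genes for catenins and other proteins of the cadherin complex, none was 2-fold apart, and the median was 0.05, or 0.36 over the 7 above the median signal. Ctnna3, an alpha-catenin gene of heart and testis, was the furthest from 0 at -0.70 but dim, while Ctnnb1, encoding beta-catenin, had 1506 in MatDup.dist7 cells and 1778 in PatDup.dist7 cells (-0.24) and Ctnnd1, encoding p120-catenin, had 1053 in MatDup.dist7 cells and 804 in PatDup.dist7 cells (0.38).

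**Figure D5:**
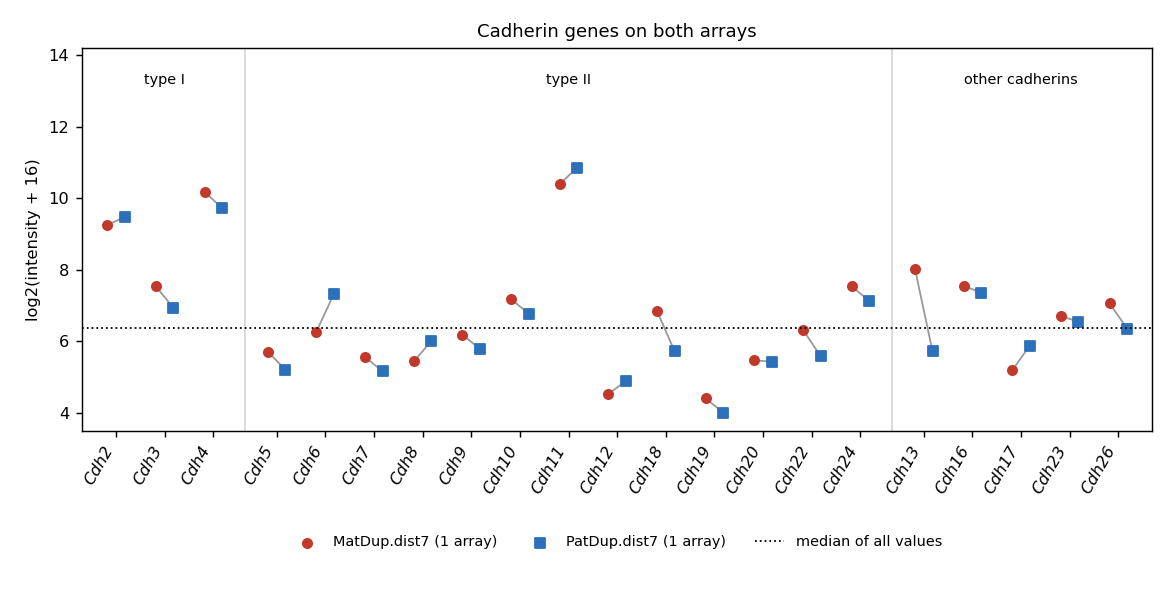
Log2(intensity + 16) of the 21 cadherin genes by type (columns), with MatDup.dist7 as red circles left of PatDup.dist7 as blue squares, 1 array each, and a dotted line at the median of all values. Cdh13 and Cdh18 step down to the right across the dotted line and Cdh6 steps up, and 9 of the 21 genes lie under the line on both arrays.

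None of the 41 genes lies on chromosome 7, so none is in the segment whose parental origin differs. Among the ligand and adaptor genes named above, Tgfb1 (-0.55), Ilk (0.14) and Parva (-0.11) do lie on chromosome 7. Whether they lie in its distal segment was not examined. The cadherin genes of chromosome 15, Cdh6, Cdh9, Cdh10, Cdh12 and Cdh18, held both a gene at least 2-fold lower in MatDup.dist7 (Cdh6) and one at least 2-fold higher there (Cdh18). The 6 cadherin genes of chromosome 8 had a median difference of 0.35, with 4 of 6 positive, and ran from -0.57 for Cdh8 to 2.30 for Cdh13. The 3 on chromosome 1 (Cdh7, Cdh19 and Cdh20) and the 3 on chromosome 2 (Cdh4, Cdh22 and Cdh26) all had positive differences, that of Cdh20 turning with the scaling.

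Several adhesion genes also mark other cell types, so marker lists were read beside them. By their higher value, 9 of 10 fibroblast markers were above the median signal. So were 9 of 10 macrophage and leukocyte markers and 12733 of all 19938 genes, so this line does not tell cell types apart. The fibroblast markers summed to 32581 in MatDup.dist7 cells and 38064 in PatDup.dist7 cells. Of the 10, 8 had lower values in MatDup.dist7, Dcn by more than 2-fold (-1.95), and the median was -0.30, beside -0.21 for the integrin alpha genes and -0.50 for the collagens, with 3 collagens in both lists. Of 9 epithelial markers, 3 of them dim, 8 had higher values in MatDup.dist7, 2 by at least 2-fold: Krt19 (2.27) and the dim Krt5 (1.16). The list summed to 898 in MatDup.dist7 cells and 513 in PatDup.dist7 cells, or to 746 in MatDup.dist7 cells and 494 in PatDup.dist7 cells without Krt19. Cdh1 of this list had 129 in MatDup.dist7 cells and 68.3 in PatDup.dist7 cells (0.79). Epcam had 159 in MatDup.dist7 cells and 103 in PatDup.dist7 cells (0.56), and no epithelial marker was under 1. Of the adhesion genes named above as epithelial, Itga3, Itgb6, Cdh3 and Fermt1 had the same direction, Itga6 (-0.42) and Itgb4 (-0.36) of hemidesmosomes had the opposite one, and Itga2 was at 0.03. The part of epithelial transcripts in these values was not tested.

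The 10 macrophage and leukocyte markers summed to 4900 in MatDup.dist7 cells and 5150 in PatDup.dist7 cells, or to 3955 in MatDup.dist7 cells and 3564 in PatDup.dist7 cells without Cd68, with 6 of 10 lower in MatDup.dist7 and none under 1. Ptprc, the common leukocyte antigen, had 113 in MatDup.dist7 cells and 137 in PatDup.dist7 cells (log2 difference -0.25). Mrc1, the mannose receptor, was the 1 past 2-fold (-1.32), Cd68 was at -0.74 and Adgre1 at 0.96, and Itgb2, the leukocyte beta subunit, had 205 in MatDup.dist7 cells and 143 in PatDup.dist7 cells (0.47). Itga4 at -1.09, Itgb7 at -0.16 and Parvg at -1.67 stand beside these values, and a part of leukocytes in them was not tested. Of the 8 measured neural and Schwann cell markers, all had higher values in MatDup.dist7, 2 by at least 2-fold. They summed to 1835 in MatDup.dist7 cells and 708 in PatDup.dist7 cells, or to 1080 in MatDup.dist7 cells and 634 in PatDup.dist7 cells without Stmn2. Stmn2 had 755 in MatDup.dist7 cells and 73.7 in PatDup.dist7 cells (3.10). The other gene past 2-fold, Elavl4, was dim, with 31.2 in MatDup.dist7 cells and 6.50 in PatDup.dist7 cells (1.07). Cdh19 belongs to that list and was under 1 in PatDup.dist7. Of the other cadherins named above with neural or neural crest cells, Cdh18, Cdh10, Cdh9, Cdh7 and Cdh4 had positive differences, and Cdh8 (-0.57), Cdh2 (-0.21) and Cdh6 (-1.06) had negative ones. Left out of this tally are the type II genes given no cell type above, Cdh22 (0.73), Cdh24 (0.42), Cdh20 (0.04) and Cdh12 (-0.36). The part of neural cells in these values was not tested.

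Endothelial markers, beside which Cdh5 is read, summed to 786 in MatDup.dist7 cells and 832 in PatDup.dist7 cells. Of the 10, 6 had lower and 4 had higher values in MatDup.dist7, with a median difference of -0.23, beside 0.51 for Cdh5. The 1 past 2-fold was the dim Esam (1.27), which was under 1 in PatDup.dist7. By their higher value, 3 of the 10 were above the median signal, Cdh5 not among them. Skeletal muscle markers, beside which Itga7 is read, summed to 2775 in MatDup.dist7 cells and 2390 in PatDup.dist7 cells, or to 887 in MatDup.dist7 cells and 1011 in PatDup.dist7 cells without Acta1. Their median difference was 0.19, with 5 of 9 positive (Myog at 0.19) and 4 negative (Myod1 at -0.27), beside -0.66 for Itga7, and none was under 1. Cartilage markers summed to 1161 in MatDup.dist7 cells and 452 in PatDup.dist7 cells, or to 562 in MatDup.dist7 cells and 311 in PatDup.dist7 cells without Col2a1. All 8 had higher values in MatDup.dist7, 3 of them dim on both arrays, while Itga10 and Cdh11 were lower there. Of the platelet markers 4 of 8 were measured, summing to 721 in MatDup.dist7 cells and 520 in PatDup.dist7 cells, or 262 in MatDup.dist7 cells and 496 in PatDup.dist7 cells without Ppbp. Itga2b (-0.52), Pf4 (-1.51) and Ppbp (3.57) did not share a direction. In bulk RNA, fewer cells of a type and less RNA per cell cannot be told apart.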

How the data were processed

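Total RNA of 1 MatDup.dist7 and 1 PatDup.dist7 MEF culture was biotin-labelled for Affymetrix whole-transcript arrays, per the labels. The authors deposited 1 linear intensity per probe set and array (35557 each, all above 0, medians of 68.6 and 64.2). Per the submitters' processing notes Affymetrix Expression Console was used. How background, summarisation and normalisation were handled is not stated in the sources used here.

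Names came from the platform annotation, keeping the 21789 with 1 symbol and leaving out 1621 with several and 12147 with none. Identifiers of 21698 were found in the reference gene table (GRCm38.p6), which gave symbols and chromosomes. From the intensities log2(intensity + 16) was computed, probe sets of a gene were averaged (Python 3.11.15, numpy 2.4.6, pandas 2.3.3), and differences of at least 2-fold were counted. The probe sets of 1 gene differed with a standard deviation of 0.40 (log2 difference; 1722 probe sets of 642 genes above the median signal), which holds no variation between cultures. The steps were tested on simulated arrays, with changes larger than 2-fold placed in bright genes and no variation between cultures. Changes of dim genes and changes near 2-fold were not covered by it.

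The members, the gene lists and the 2-fold rule were chosen with earlier results of these data known. All members were named; of each pathway list, up to 4 genes at least 2-fold apart or the 1 furthest from 0 were named, and other list genes were chosen after their values were seen or as known partners of a member.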

Additional observations from a re-analysis of the deposited data

How the results depend on the processing

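No paired analysis was possible because each genotype has 1 array. Values were recomputed with pseudocounts of 1 and 64, a floor at the 25th percentile, quantile normalisation, median centring, the median signal as a filter, the brightest probe set per gene and, chosen after seeing the data, without probe sets under 1. Counts were also taken with 1.5-fold and 3-fold rules. Integrin genes higher in MatDup.dist7 (2) numbered 0 with a pseudocount of 64 and the 3-fold rule, and 1 with the floor, centring, the signal filter and without probe sets under 1. Integrin genes higher in PatDup.dist7 (1) numbered 2 with a pseudocount of 1 and the floor, 3 with the 1.5-fold rule, and 0 with a pseudocount of 64, the signal filter and the 3-fold rule. Cadherin genes higher in MatDup.dist7 (2) numbered 1 with a pseudocount of 64 and the 3-fold rule, 3 with a pseudocount of 1 (Cdh19 joining), and 5 with the 1.5-fold rule. Cadherin genes higher in PatDup.dist7 (1) numbered 2 with a pseudocount of 1 and the 1.5-fold rule, and 0 with a pseudocount of 64 and the 3-fold rule. The share of all genes 2-fold apart was 19.5% with a pseudocount of 1 and 0.868% with 64. The 1.5-fold rule was passed by 27.9% of all genes, 15.5% with positive and 12.5% with negative differences. The 3-fold rule was passed by 1.37% of all genes. The family medians kept their sign but not their size: they ran from -0.29 to -0.11 for alpha subunits, -0.16 to -0.02 for beta subunits and 0.18 to 0.46 for cadherins. Of 313 single-gene values under alternatives, 10, in 6 genes, moved by more than 0.40, and no gene at least 2-fold apart changed sign. A pseudocount or floor cannot reverse the sign of a probe set. The filter, the brightest probe set and leaving out probe sets under 1 do not alter the value of a gene with 1 probe set. The lack of sign changes is therefore no evidence that the differences are stable. Signals near 0 limit Itgb6 and Cdh19 in particular.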
